A study of Mus musculus with 24 samples.

Results

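The liver is made mostly of hepatocytes, and the remaining cells, the non-parenchymal cells, were followed here through 38 marker genes out of the 25746 genes counted in whole liver. The genes are usual cell type markers, chosen with earlier results of these mice known, and they fell into 5 classes, with 10 genes of Kupffer cells and other macrophages, 9 of endothelial cells, 9 of hepatic stellate cells and fibroblasts, 5 of biliary cells and 5 of lymphoid cells and leukocytes in general. Liver RNA was sequenced from 24 mice aged 12 weeks, 6 each of male wildtype (mWT), male knockout (mKO), female wildtype (fWT) and female knockout (fKO). The knockout mice (KO) were homozygous for a CRISPR/Cas9 deletion of the whole major urinary protein (Mup) gene cluster on chromosome 4, which encodes lipocalins secreted by hepatocytes, and they descended from a single founder on the C57BL/6N background that the wildtype mice (WT) shared. All mice were fasted and anaesthetised before sampling, and no group carried a cell type-specific transgene, so the deletion was present in non-parenchymal cells as well as in hepatocytes.

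Kupffer cells are the resident macrophages of the liver sinusoids, where they take up particles, ageing red blood cells and bacteria from portal blood. Liver sinusoidal endothelial cells form a fenestrated wall with high scavenging activity, stellate cells store retinyl esters and become the main source of collagen when activated, and cholangiocytes line the bile ducts. Markers of these cells are a common way to follow the composition of a liver sample from its RNA, but in bulk tissue fewer cells of a type and less RNA per cell cannot be told apart.

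Between 15361901 and 26261394 reads were counted per mouse. The deletion was visible in the Mup genes themselves, which took between 1.697% and 3.682% of the counts in mWT mice and between 0.3444% and 0.5554% in fWT mice, whereas 3 of the 12 KO libraries held any Mup read, with 11 reads at most. Expression is given as CPM, that is, counts relative to the scaled library size, and divided by the exon length in kb where genes are compared with each other. The summed level of 8 hepatocyte genes such as Alb lay between 43100 and 68300 CPM per kb in all mice, as the liver label implies. The 10 macrophage markers together lay between 47.5 and 160 CPM per kb. These sums depend on the genes chosen and do not measure the non-parenchymal share of the RNA. Pancreatic acinar and adipocyte markers were near zero, and none of the 6 and 4 genes on those lists reached the filter for testing. The filter of 0.66 CPM in at least 6 libraries was passed by 32 of the 38 genes, of which 30 reached that level in all 24 libraries. The other 6 (the keratins Krt7 and Krt19 of bile ducts, the T cell genes Cd3e and Cd8a, the B cell gene Cd79a and the cytotoxic granule gene Nkg7) had means over all mice between 0.165 and 0.467 CPM and are given below without a test.

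Per kb of exon, the most abundant of the 38 were Ecm1, an extracellular matrix protein of stellate cells, with a mean of 30.7 CPM per kb over the 24 mice, Dcn (decorin) with 24.2, Spp1 (osteopontin) with 22.9, Cd5l, a secreted scavenger receptor-like protein of macrophages, with 21.9, and Clec4f, a C-type lectin found on Kupffer cells, with 19.2. Among the endothelial genes Clec4g, a lectin of sinusoidal cells, was highest with 15.3 CPM per kb. The collagen genes Col1a1 and Col1a2 stood at 0.589 and 0.873 CPM per kb and the intermediate filament gene Des at 0.548, and Ptprc, which encodes the pan-leukocyte antigen CD45, at 0.383. Of the 38 genes, 36 had both female group means above both male group means, and 29 had their highest group mean in fWT. The 38 include the 6 genes under the filter. The macrophage genes varied together from mouse to mouse, as given below, so these counts are not separate observations. Sox9, a transcription factor of biliary and progenitor cells, was the 1 gene with both male means above both female means.

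The marker genes differed between the sexes, and they did so in one direction. Between mWT and fWT mice, 15 of the 32 tested genes (46.9%) were lower in males with an adjusted p-value under 0.05, and 0 were higher, whereas over all 12330 genes tested 17.3% were called, 8.81% lower and 8.51% higher in males. The median log2 fold change of male over female was -0.40 for the 32 genes and 0.00 for all genes (-0.00204 before rounding). The genes called were 7 of 10 macrophage, 4 of 9 endothelial, 2 of 9 stellate and 1 of 3 biliary markers, and Ptprc. The macrophage markers and Ptprc varied together from mouse to mouse, as given below, so their calls are not separate observations. The summed level of the macrophage markers was 71.4 ± 18.3 CPM per kb (SD, n = 6) in mWT and 124 ± 30.7 in fWT, a ratio of female to male means of 1.74, which exceeded the ratios of 1.26 for endothelial, 1.32 for stellate and 1.31 for biliary markers. Spp1 made up most of the biliary sum, with 22.9 CPM per kb over the 24 mice and a ratio of 1.32. Epcam had a ratio of 1.68 and Sox9 of 0.795. Ecm1 and Dcn, with 30.7 and 24.2 CPM per kb, made up most of the stellate sum. Their ratios were 1.4 and 1.3. Lrat, Reln, Des and Hgf had ratios of 1.18 to 1.46, and Col1a1, Col1a2 and Col3a1 of 0.983 to 1.08. The 5 lymphoid and leukocyte genes together had a ratio of 2.56 at a very low level, with means of 0.634 ± 0.21 CPM per kb in mWT and 1.62 ± 0.579 in fWT. That ratio depended on the division by length and was 1.85 without it. Only Ptprc of the 5 genes passed the filter, and its ratio was 1.73.

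**Figure D1:**
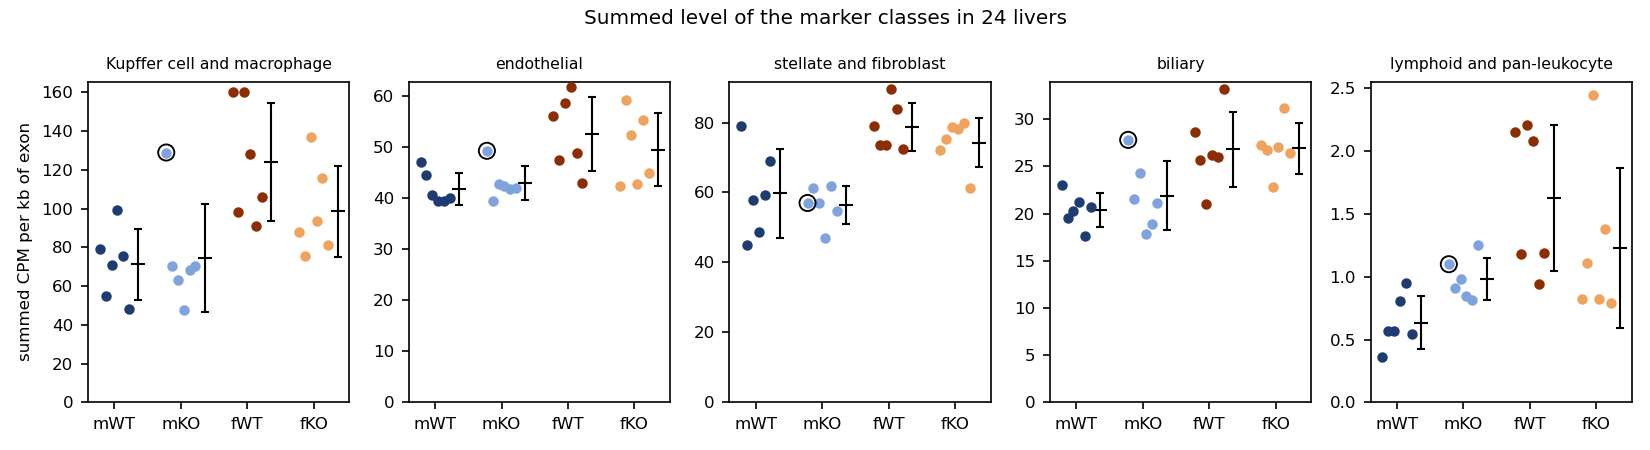
Summed level of each marker class in CPM per kb of exon (y axis, starting at 0) for each mouse (points) in the 4 groups (x axis), with mean ± SD beside the points and mKO mouse 1 ringed. The macrophage sum was 91.2 CPM per kb or higher in all fWT mice and 99.5 or lower in all mWT mice, and mKO mouse 1 stood at 129 CPM per kb, above the next mKO mouse at 70.4.

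Clec4f (ENSMUSG00000014542, chr6:83644542-83656187), the most specific of the Kupffer cell genes, ranged from 23.7 to 51.6 CPM in mWT mice with a median of 39.5, and from 45.2 to 87.3 CPM in fWT mice with a median of 60.7. The ranges overlapped between 45.2 and 51.6 CPM, and the log2 fold change was -0.73 (SE 0.22, adjusted p = 0.0223, edgeR quasi-likelihood test with Benjamini-Hochberg adjustment over all genes, as for all adjusted p-values here). Vsig4 (ENSMUSG00000044206, chrX:96247203-96293438), a complement receptor of the immunoglobulin superfamily on Kupffer cells, had the largest difference of the 32 genes. Its level was 7.26 to 15.3 CPM (median 11.2) in mWT and 14.8 to 32.5 CPM (median 20.2) in fWT mice, with a log2 fold change of -1.05 (SE 0.25, adjusted p = 0.00535). Cd5l (ENSMUSG00000015854, chr3:87357881-87371073) stood at 26.9 to 49.8 CPM (median 32) in mWT and at 45.3 to 85.7 CPM (median 56.9) in fWT mice, and its log2 fold change was -0.84 (SE 0.21, adjusted p = 0.00779). In both genes a small overlap between the sexes remained.

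Cd68 (ENSMUSG00000018774, chr11:69664213-69666153), a lysosomal glycoprotein of macrophages, was the only 1 of the 32 genes whose 6 mWT and 6 fWT mice did not overlap, while 7.7% of all genes tested had no overlap between these groups. Its values were 1.21 to 2.87 CPM (median 2.71) in mWT and 3.01 to 6.68 CPM (median 4.53) in fWT mice, with a log2 fold change of -0.96 (SE 0.23, adjusted p = 0.0043). Csf1r (ENSMUSG00000024621), the receptor for the macrophage growth factors CSF1 and IL-34, had 12.6 to 26.6 CPM (median 20.4) in mWT and 24.3 to 41.5 CPM (median 30.8) in fWT mice and a log2 fold change of -0.71 (SE 0.24, adjusted p = 0.0445). The complement genes C1qa (chr4:136895917-136898803) and C1qb (chr4:136880129-136886187), which macrophages transcribe for 2 of the chains of C1q, moved in the same direction. C1qa was 5.35 to 12.8 CPM (median 8.96) in mWT and 12.3 to 19.0 CPM (median 15.7) in fWT mice, with a log2 fold change of -0.79 (SE 0.22, adjusted p = 0.0149). C1qb was 8.40 to 19.3 CPM (median 13.8) in mWT and 17.1 to 27.5 CPM (median 20.7) in fWT mice, with a log2 fold change of -0.65 (SE 0.22, adjusted p = 0.0426). The other macrophage markers did not pass the threshold, with log2 fold changes of -0.59 for Adgre1 (F4/80), -0.99 for the scavenger receptor Marco and -0.68 for the phosphatidylserine receptor Timd4 and adjusted p-values of 0.139, 0.145 and 0.0763. All 10 macrophage markers had an unadjusted p-value under 0.05 in WT mice, beside 30.6% of all genes tested.

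**Figure D2:**
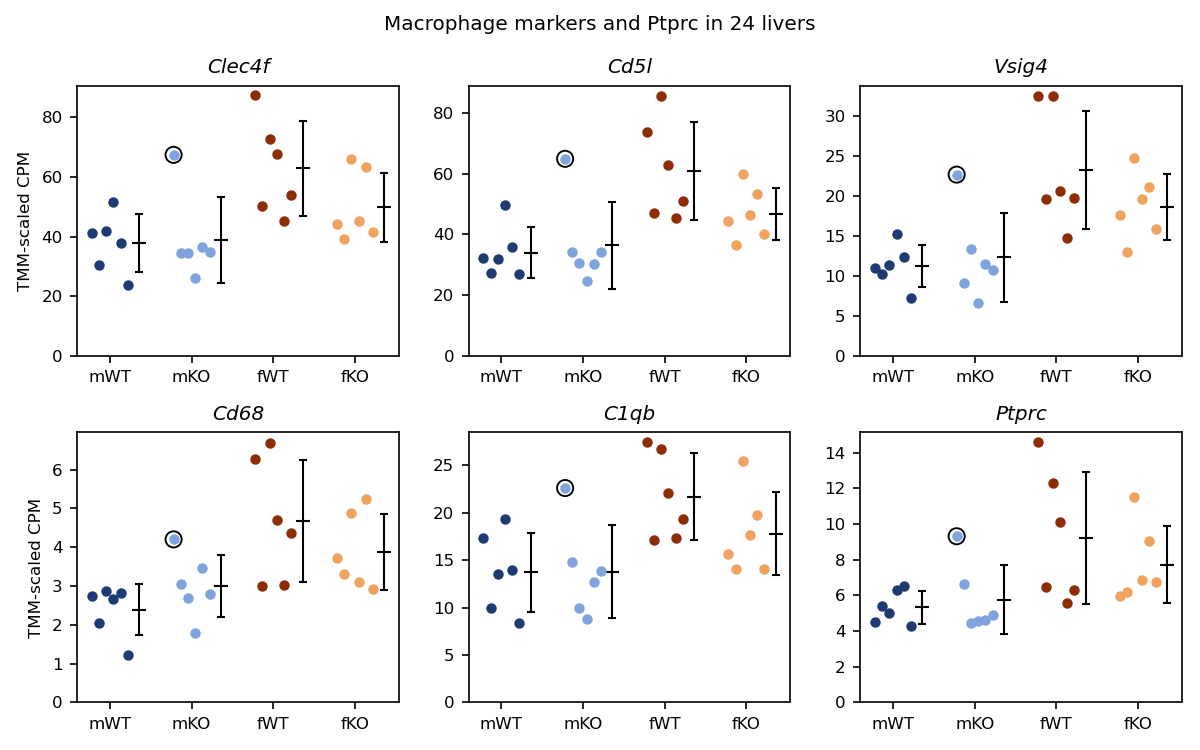
TMM-scaled CPM (y axis, starting at 0) of 5 macrophage markers and Ptprc in each mouse (points) of the 4 groups (x axis), with mean ± SD beside the points and mKO mouse 1 ringed. The 6 mWT mice lay below the 6 fWT mice without overlap for Cd68 (2.87 CPM at most against 3.01 at least), and mKO mouse 1 was the highest mKO mouse in all 5 macrophage genes.

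In the KO mice, the same comparison of males with females gave fewer calls. Between mKO and fKO mice, 4 of the 32 genes (12.5%) were lower in males and 0 higher, beside 14.4% of all genes tested, 7.13% lower and 7.26% higher. None of the 10 macrophage markers passed in the KO mice, either with edgeR or with DESeq2, and 2 of the 10 had an unadjusted p-value under 0.05 (28.4% of all genes tested), although all 10 log2 fold changes were negative with a median of -0.41. The 3 genes called in both genotypes were Stab2, Dcn and Ecm1. Their calls in KO mice were lost in 24, 7 and 5 of the 34 alternative analyses. Of the 32 genes, 30 had a negative log2 fold change in both genotypes. Over all genes tested, 6212 of 12330 had one in WT mice and 6277 in KO mice. Clec4f ranged from 26.1 to 67.4 CPM (median 34.7) in mKO and from 39.3 to 65.9 CPM (median 44.7) in fKO mice, with a log2 fold change of -0.35 (SE 0.22, adjusted p = 0.297). Vsig4 stood at 6.57 to 22.7 CPM (median 11.1) in mKO and 13.0 to 24.8 CPM (median 18.6) in fKO mice, with a log2 fold change of -0.59 (SE 0.25, adjusted p = 0.124). Cd5l was 24.8 to 64.9 CPM (median 32.4) in mKO and 36.4 to 60 CPM (median 45.4) in fKO mice, and Csf1r was 10.8 to 30.3 CPM (median 15.8) and 17.9 to 35.5 CPM (median 21.6). Medians were higher in females in both. Cd68 was 1.80 to 4.20 CPM (median 2.93) in mKO and 2.92 to 5.25 CPM (median 3.52) in fKO mice. C1qa was 6.35 to 14.5 CPM (median 10) in mKO and 9.58 to 19.0 CPM (median 10.5) in fKO mice, and C1qb was 8.84 to 22.6 CPM (median 13.3) and 14.1 to 25.5 CPM (median 16.6). The sexes overlapped in all of these genes. For Clec4f the overlap between the sexes came from 1 mouse, since the other mKO mice had at most 36.5 CPM.

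This mouse, mKO mouse 1, was the highest of the 6 mKO mice in each of the 10 macrophage markers, with a median deviation of 0.87 from the group means on the log2 scale. Its summed macrophage level of 129 CPM per kb lay inside the fWT range of 91.2 to 160, and the other mKO mice lay between 47.5 and 70.4 with a mean of 63.9 ± 9.62 (SD, n = 5). Without it, 10 of the 32 genes were called lower in males in the KO mice, including the macrophage genes Adgre1, Cd5l, Clec4f, Csf1r, Timd4 and Vsig4, and the median log2 fold change of the macrophage markers was -0.64. Without mKO mouse 4, the mouse with the lowest value of all 10 macrophage markers in its group, 0 genes were called, and without mKO mouse 5 or 6 or fKO mouse 2, 3 or 5 the count was 2. In WT mice the count fell from 15 to 9, and that of macrophage markers from 7 to 4, without mWT mouse 6 or fWT mouse 1. The number of genes called was therefore sensitive to single mice in both genotypes. No marker gene had a difference between the WT and KO sex comparisons that passed the threshold (lowest adjusted p = 0.874, for Cd68).

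The regions upstream of the macrophage genes are shown because these genes moved together. Many macrophage genes are also bound by the transcription factor PU.1, whose preferred binding sequence includes GAGGAA. In the 250 bases before the RefSeq transcription start (GRCm38.p6), the letters GAGGAA or, on the other strand, TTCCTC were found for 5 of the 7 macrophage markers with a window (71.4%). Over all 27 members with a window the share was 48.1% (13 genes), with 1 of 5 endothelial, 1 of 7 stellate, 2 of 3 biliary and 4 of 5 lymphoid and leukocyte genes. Over all 32851 RefSeq windows it was 23.3%. That share counts single windows, whereas a member with several windows was counted if any of them held a match, so the shares are not in the same unit. The windows of 4 macrophage genes are printed in the direction of transcription with these letters in capitals, from chr3:87357631-87357880 (plus strand), chr4:136886201-136886450, chr11:69666171-69666420 and chrX:96293439-96293688 (minus strand). A match is a run of letters and not a binding site. Clec4f and Timd4 held no match in their windows.
Cd5l: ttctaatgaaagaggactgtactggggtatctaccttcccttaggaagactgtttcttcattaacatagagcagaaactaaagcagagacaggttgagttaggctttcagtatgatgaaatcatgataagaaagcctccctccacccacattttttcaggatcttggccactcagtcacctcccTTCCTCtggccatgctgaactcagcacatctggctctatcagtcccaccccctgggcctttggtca
C1qb: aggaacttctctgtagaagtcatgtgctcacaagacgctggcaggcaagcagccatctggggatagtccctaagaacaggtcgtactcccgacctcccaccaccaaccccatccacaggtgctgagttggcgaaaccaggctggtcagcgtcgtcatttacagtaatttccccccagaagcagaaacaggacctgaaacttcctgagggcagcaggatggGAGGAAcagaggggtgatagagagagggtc
Cd68: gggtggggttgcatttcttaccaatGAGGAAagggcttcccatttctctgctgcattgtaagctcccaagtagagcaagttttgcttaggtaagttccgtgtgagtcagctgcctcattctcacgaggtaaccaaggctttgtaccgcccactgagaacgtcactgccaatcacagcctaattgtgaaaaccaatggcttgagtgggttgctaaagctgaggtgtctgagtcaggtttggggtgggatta
Vsig4: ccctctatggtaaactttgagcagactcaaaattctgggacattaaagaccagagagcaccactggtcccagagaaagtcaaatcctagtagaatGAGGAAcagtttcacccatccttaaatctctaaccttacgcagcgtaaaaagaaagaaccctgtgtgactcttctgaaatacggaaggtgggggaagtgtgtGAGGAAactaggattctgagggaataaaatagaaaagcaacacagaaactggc

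Vsig4 held 2 matches and Cd5l, C1qb and Cd68 held 1 each. The 4 printed genes were chosen from those called lower in mWT than in fWT mice, so this direction was fixed by the choice. Clec4f was called too and held none, and Marco, which was not called, held 1.

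The endothelial markers differed less between the sexes than the macrophage markers. In WT mice all 9 had negative log2 fold changes with a median of -0.28, and Stab2, Clec4g, Oit3 and Fcgr2b were called. Fcgr2b, the inhibitory Fc receptor that sinusoidal endothelium uses to clear immune complexes, was 30.8 to 45.3 CPM (median 33.1) in mWT and 37.2 to 59.2 CPM (median 46.5) in fWT mice, with a log2 fold change of -0.44 (SE 0.12, adjusted p = 0.0129). Clec4g was 27.7 to 38.2 CPM (median 32.3) in mWT and 32.3 to 48.6 CPM (median 43.8) in fWT mice, with a log2 fold change of -0.39 (SE 0.11, adjusted p = 0.0171). The groups overlapped in both genes. Oit3, a secreted protein of sinusoidal cells, was 11.5 to 18.9 CPM (median 13.6) in mWT and 14.6 to 21.4 CPM (median 17.0) in fWT mice, with a log2 fold change of -0.34 (SE 0.11, adjusted p = 0.0378). In the KO mice, where these genes were not called, Fcgr2b was 31.1 to 42.9 CPM (median 36.8) in males and 37.9 to 51.9 CPM (median 46.8) in females. Clec4g was 31.0 to 43.8 CPM (median 34.1) and 31.9 to 52.6 CPM (median 38.8), and Oit3 was 13.0 to 15.6 CPM (median 14.7) and 13.7 to 20.4 CPM (median 16.5). All these ranges overlapped between the sexes. The hyaluronan scavenger receptor gene Stab2 was 30.4 to 42.9 CPM (median 31.6) in mWT, 35.4 to 44.3 CPM (median 42.0) in fWT, 28.1 to 34.3 CPM (median 33.7) in mKO and 27.9 to 51.6 CPM (median 40.7) in fKO mice. Its log2 fold changes of -0.32 in WT and -0.33 in KO mice (SE 0.11 in both) were close to the threshold, with adjusted p-values of 0.0485 and 0.049, and its call was lost in 22 and 24 of the 34 alternative analyses. Stab1, its paralogue, was 17.2 to 29.9 CPM (median 19.6) in mWT, 19.3 to 34.8 CPM (median 25.1) in fWT, 17.5 to 23.3 CPM (median 21.6) in mKO and 15.9 to 32.5 CPM (median 23.9) in fKO mice and was not called in either genotype (WT log2 fold change -0.27, SE 0.16, adjusted p = 0.269). The vascular genes that all endothelium expresses, Pecam1, Kdr and Cdh5, had log2 fold changes between -0.28 and -0.25 in WT mice without a call, and the lymphatic and sinusoidal hyaluronan receptor gene Lyve1 had -0.05.

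Among the stellate and fibroblast markers, the same matrix genes were called in both genotypes. Dcn (chr10:97479609-97518143), a small proteoglycan that binds collagen and TGF-beta, was 96.8 to 155 CPM (median 120) in mWT and 139 to 174 CPM (median 162) in fWT mice, with a log2 fold change of -0.38 (SE 0.11, adjusted p = 0.012). In the KO mice it was 96.7 to 140 CPM (median 133) in males and 136 to 199 CPM (median 153) in females, with a log2 fold change of -0.32 (SE 0.11, adjusted p = 0.038). The male and female ranges overlapped in both genotypes, with all medians higher in females. Ecm1 (chr3:95734147-95739569) was 43.4 to 91.9 CPM (median 66.4) in mWT and 82.3 to 110 CPM (median 92.5) in fWT mice, with a log2 fold change of -0.49 (SE 0.13, adjusted p = 0.00761), and 55.4 to 73.5 CPM (median 62.3) in mKO and 69.7 to 92.3 CPM (median 86.4) in fKO mice, with -0.42 (SE 0.13, adjusted p = 0.0248). Lrat (chr3:82892579-82903973), the enzyme that forms retinyl esters for storage in stellate cells, was called in the KO mice with a log2 fold change of -0.63 (SE 0.18, adjusted p = 0.0203) and not in the WT mice with -0.24 (SE 0.18, adjusted p = 0.393). Its values were 11.3 to 19.5 CPM (median 15.3) in mKO, 14.6 to 34.0 CPM (median 23.6) in fKO, 12.5 to 26 CPM (median 21.1) in mWT and 20.1 to 28.1 CPM (median 25.2) in fWT mice. The difference between these log2 fold changes did not pass the threshold (adjusted p = 0.88).

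The fibrillar collagens, which mark activated stellate cells and portal fibroblasts, showed no called sex difference. In WT mice the log2 fold changes of Col1a1, Col1a2 and Col3a1 were -0.12, -0.08 and 0.02, and in KO mice -0.70, -0.62 and -0.56 with adjusted p-values of 0.262, 0.134 and 0.213. In the fKO group, mouse 5 had 26 CPM of Col1a2 and 61.4 CPM of Col3a1 and stood above all other mice in both genes. The same library had 19.5 CPM of Acta2 and 12.7 CPM of Tagln, contractile genes of smooth muscle and activated stellate cells, against at most 4.30 and 5.81 CPM in the 23 other mice. Without it, the KO log2 fold changes of Col1a1, Col1a2 and Col3a1 were -0.26, -0.30 and -0.27 with adjusted p-values of 0.7, 0.434 and 0.552, less than 0.5 times those with it. Hgf, the hepatocyte growth factor gene, Reln and Des had negative log2 fold changes in both genotypes, between -0.54 and -0.20, without a call.

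**Figure D3:**
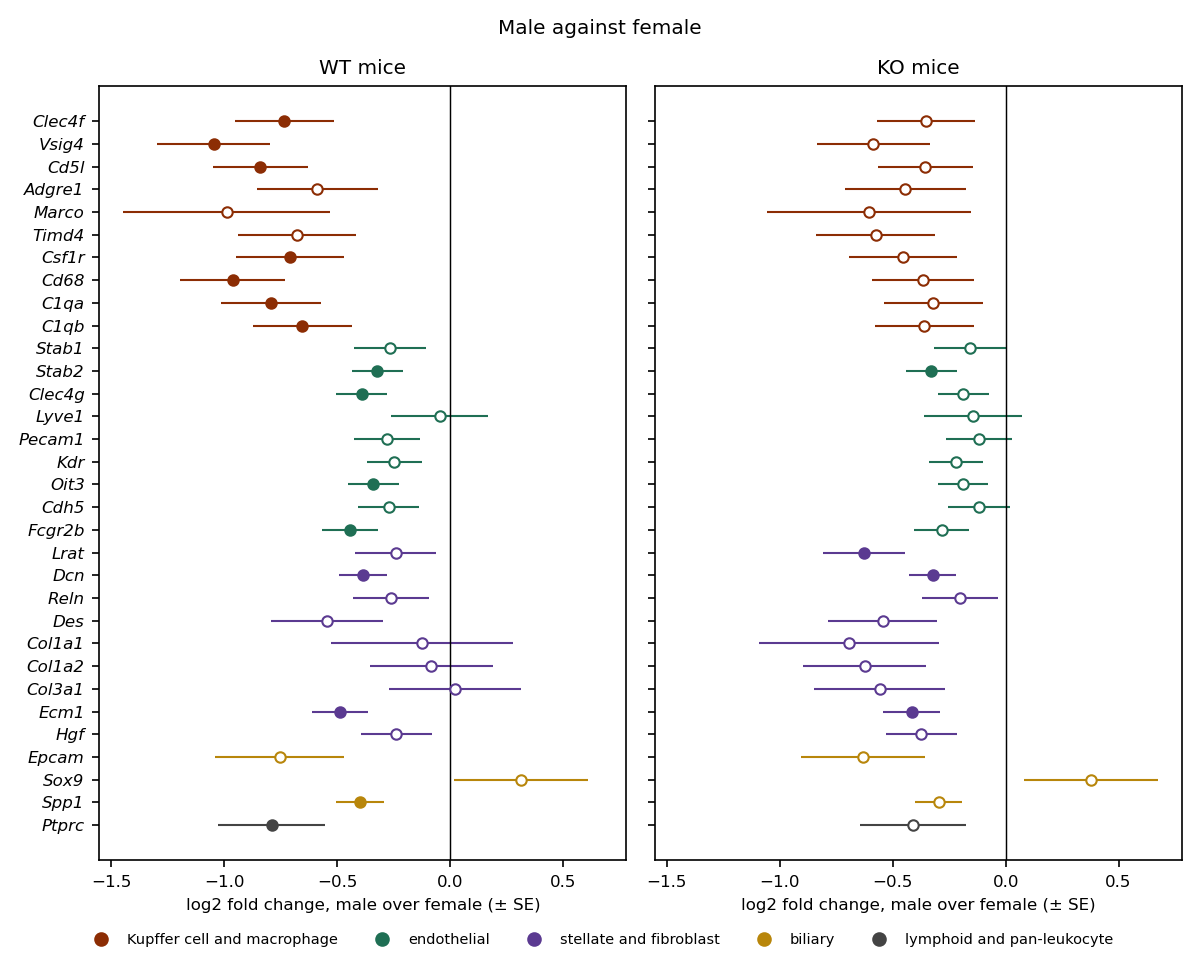
Log2 fold change of male over female mice with SE (x axis) for the 32 tested marker genes (y axis, coloured by class) in WT mice (left) and KO mice (right), 6 mice per group. Filled points mark an adjusted p-value under 0.05, of which there were 15 in WT and 4 in KO mice, all left of 0.

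Of the biliary markers, Spp1 (chr5:104435118-104441050), a secreted phosphoprotein, was 27.6 to 35.6 CPM (median 31.9) in mWT and 33.0 to 52.1 CPM (median 41.0) in fWT mice, with a log2 fold change of -0.40 (SE 0.11, adjusted p = 0.00857). In the KO mice it was 27.7 to 44.4 CPM (median 33.4) in males and 35.3 to 48.6 CPM (median 42.5) in females and just missed the threshold (log2 fold change -0.30, SE 0.10, adjusted p = 0.0553). Epcam, an adhesion molecule of biliary epithelium, was at or below 1.96 CPM in all mice and had log2 fold changes of -0.75 and -0.63 without a call, and those of Sox9 were 0.31 and 0.38. Krt7, the classic duct keratin, had medians of 0.389 CPM in mWT, 0.365 in mKO, 0.620 in fWT and 0.5 in fKO mice and at most 16 counts in any library. It did not reach the filter and was not called with the less strict filter of 0.66 CPM in at least 2 libraries (adjusted p = 0.156 in WT and 0.174 in KO mice).

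Ptprc (chr1:138062861-138175708) was 4.27 to 6.53 CPM (median 5.23) in mWT and 5.60 to 14.6 CPM (median 8.31) in fWT mice, with a log2 fold change of -0.79 (SE 0.24, adjusted p = 0.0218). In KO mice it was 4.48 to 9.32 CPM (median 4.79) in males and 5.95 to 11.5 CPM (median 6.81) in females and was not called (log2 fold change -0.41, SE 0.24, adjusted p = 0.262). The T cell receptor component gene Cd3e was close to the limit of detection, which at 3 counts was 0.113 to 0.199 CPM depending on the library. Its medians were 0.163 CPM in mWT, 0.169 in mKO, 0.450 in fWT and 0.237 in fKO mice. Cd8a was listed at 0 in 3 libraries and Krt19 and Nkg7 in 1 each, where fewer than 3 counts of these genes cannot be told from none. With a less strict filter of 0.66 CPM in at least 2 libraries, Cd3e and Nkg7 were called lower in males in the WT mice. These calls rest on few reads. Cd3e had 1 to 5 counts per library in mWT and 3 to 16 in fWT mice, and Nkg7 had 0 to 4 and 5 to 18.

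Deletion of the Mup cluster was followed by no called change in any of the 32 genes. Between mKO and mWT mice 0 were called, beside 0.211% of all genes tested, and between fKO and fWT mice 0 were called, beside 0.0892%. The genes tested included the deleted Mup genes. The calls over all genes were 4 higher and 22 lower in KO males, and 0 higher and 11 lower in KO females. At shares this low, 0 calls in 32 genes do not set the markers apart from other genes. At the less strict cut-off of the study, an unadjusted p-value under 0.01, 0 members passed in either sex, beside 3.52% of all genes in males and 0.876% in females. An unadjusted p-value under 0.05 was reached by 1 of the 32 genes in males (Lrat, beside 10.6% of all genes) and 0 in females (4.87% of all genes). DESeq2 also called 0 in both. In 0 of the 32 genes did all 6 KO mice lie above or below all 6 WT mice of their sex, beside 1.09% of all genes in males and 0.349% in females. The KO effect averaged over the sexes called 0 members, beside 0.17% of all genes, and the difference of the KO effects between the sexes called 0, beside 0.00811%. For the averaged effect 0 members had an unadjusted p-value under 0.01 or 0.05, beside 2.83% and 9.57% of all genes, and for the difference 0 had one, beside 1.16% and 5.96%, and DESeq2 called 0 in both.

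In males the median log2 fold change of KO over WT was 0.01 for the 32 genes, 0.07 for the macrophage, 0.01 for the endothelial and -0.14 for the stellate markers. Without mKO mouse 1 the macrophage median in males was -0.19. The lowest p-value in males was that of Lrat, with a log2 fold change of -0.44 (SE 0.18, unadjusted p = 0.0252, adjusted p = 0.378). In females the macrophage markers had a median log2 fold change of -0.30, and all 10 were negative, from -0.39 (Csf1r) to -0.15 (Adgre1), each with an adjusted p-value of 0.929 or higher. The female medians of the endothelial and stellate markers were -0.10 and 0.07, the latter -0.06 without fKO mouse 5. The summed level of the macrophage markers was 98.6 ± 23.5 CPM per kb (SD, n = 6) in fKO and 124 ± 30.7 in fWT mice, with ranges of 75.7 to 137 and 91.2 to 160. In males the sums were 74.6 ± 27.8 in mKO and 71.4 ± 18.3 in mWT mice, and the mKO mean was 63.9 without mouse 1. The 10 markers share the same mice and moved together from mouse to mouse, so their common sign is not 10 separate observations. The median SE of these genes in females was 0.23.

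The difference of the KO effects (males minus females), which equals the difference of the sex differences between KO and WT mice, was positive for all 10 macrophage markers with a median of 0.38. The largest was that of Cd68 with 0.60 (SE 0.32, unadjusted p = 0.0757, adjusted p = 0.874). Without mKO mouse 1 the median of the 10 markers was 0.12 and their range -0.31 to 0.47. For the endothelial markers the median was 0.15 and for the stellate markers -0.14, the latter led by Col3a1 with -0.58 (SE 0.41, adjusted p = 0.895), which was -0.29 (SE 0.36, adjusted p = 0.957) without fKO mouse 5.

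**Figure D4:**
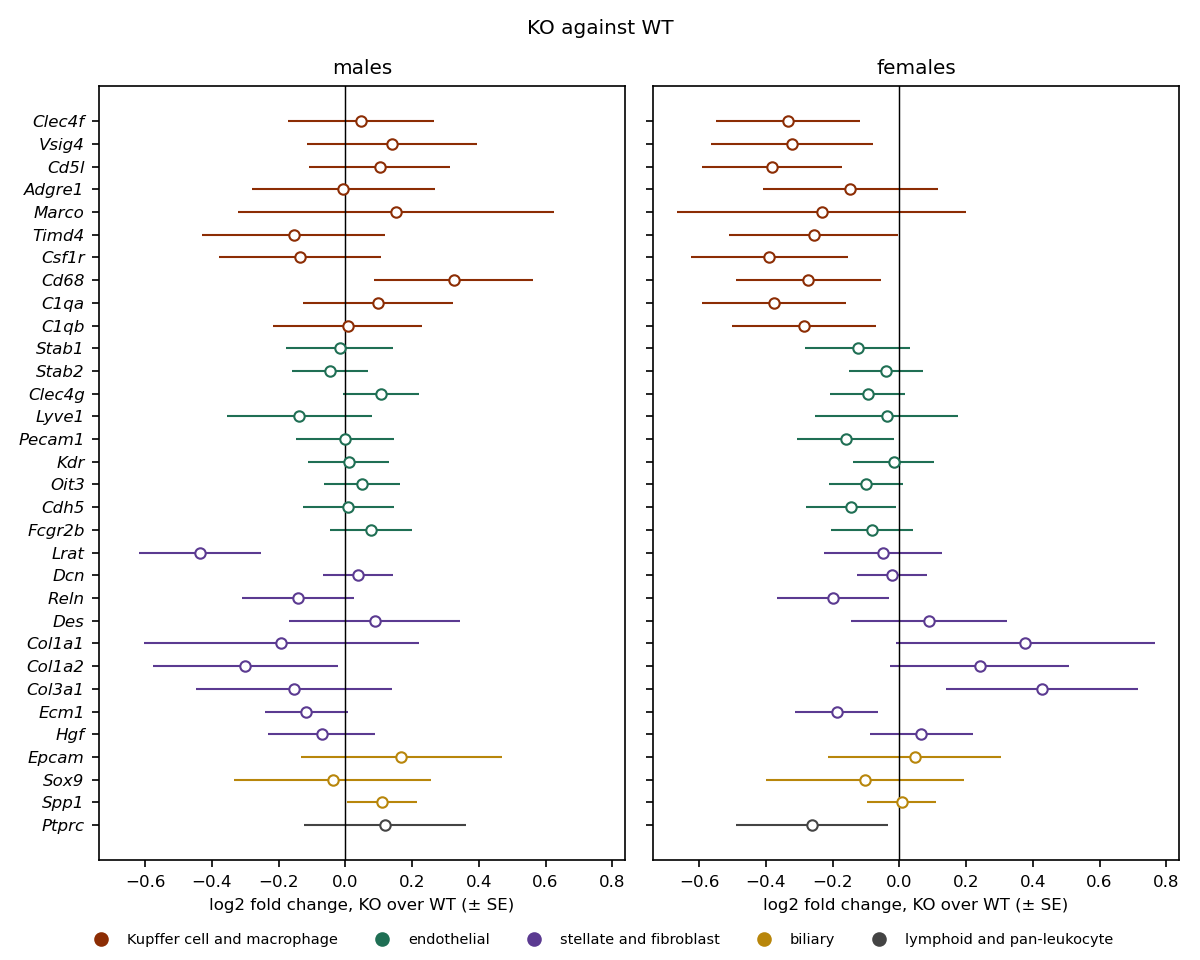
Log2 fold change of KO over WT mice with SE (x axis) for the 32 tested marker genes (y axis, coloured by class) in males (left) and females (right), 6 mice per group. All points are open, since none had an adjusted p-value under 0.05, and the 10 macrophage markers lie left of 0 in females with a median of -0.30.

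Within the groups, markers of one class varied together from mouse to mouse to very different degrees. After each gene was centred on its group means, the median Pearson r between pairs of macrophage markers over the 24 libraries was 0.846 (45 pairs, range 0.566 to 0.958). It was 0.519 for 36 endothelial pairs, 0.388 for 36 stellate pairs and 0.194 for 3 biliary pairs, against -0.00112 over all pairs of tested genes. These are descriptions across libraries that share depth and scaling. The macrophage markers were tied to Ptprc with a median r of 0.774 (10 pairs), closer than to the endothelial markers with 0.253 (90 pairs) or the stellate markers with 0.230. Among the 31 other tested members, Ptprc was most like Adgre1 (r = 0.888) and Cd5l (r = 0.851), and its highest r with a gene outside the macrophage class was 0.654 with Fcgr2b. The stellate class held a tight core of Col1a1, Col1a2 and Col3a1 (r from 0.894 to 0.913), whereas Lrat and Col1a1 had an r of 0.078. Lyve1 went with Dcn (r = 0.630) and Reln (r = 0.620) more than with the other endothelial genes, and its r with Clec4g was -0.423.

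**Figure D5:**
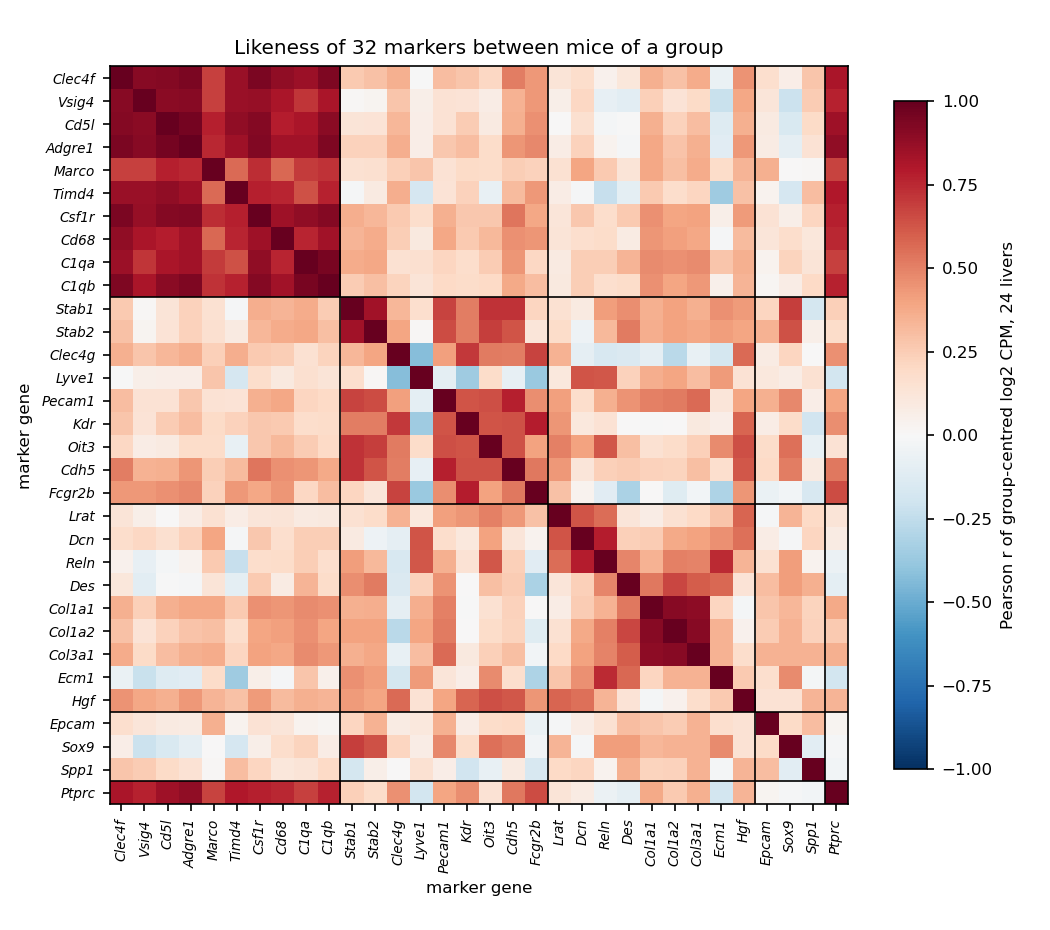
Pearson r between the group-centred log2 CPM of each pair of the 32 tested marker genes over 24 livers (colour scale from -1 to 1), with the genes in class order on both axes and lines between the classes. The macrophage block at the upper left has a median r of 0.846 and is joined by Ptprc in the last row and column.

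Further markers of the same cell types, which are not among the 38, are given by list, beside the 8.81% of all genes tested that were lower in males in WT and the 7.13% in KO mice. Of 12 other macrophage genes, 9 were lower in males in WT mice and 1 in KO mice, and all 12 had negative log2 fold changes in both. The smallest p-values in WT mice were those of Fcer1g, the common Fc receptor gamma chain (log2 fold change -0.80, SE 0.18, adjusted p = 0.00236), the lysosomal protease gene Ctss (-0.90, SE 0.23, adjusted p = 0.00804) and Laptm5 (-0.69, SE 0.20, adjusted p = 0.0183). In KO mice the gene called was the iron exporter gene Slc40a1 (-0.54, SE 0.15, adjusted p = 0.0136). It followed the macrophage markers only in part. Its lowest mKO value, 101 CPM, was in mouse 4, as for those markers, but it had 149 CPM in mKO mouse 1 and 186 in mKO mouse 3. Its lowest fKO value, 167 CPM, was in mouse 3, which had the highest fKO macrophage sum (137 CPM per kb). Which cells its reads came from was not tested. Of 18 other endothelial genes 3 were lower in males in WT mice (Eng, Bmp2 and Mrc1, with -0.41, -0.43 and -0.43) and 1 in KO mice (Bmp2, -0.39). Of 13 other stellate genes, 2 were lower in males in WT mice (Colec11 and Bgn, with -0.47 and -0.36) and 3 in KO mice (Bgn, Colec11 and Lum, with -0.39, -0.35 and -0.60). Both genotypes called the same 2 of 5 other biliary genes, Prom1 (log2 fold change -1.74 in WT and -1.61 in KO mice) and Bicc1 (-0.53 and -0.54). No gene of these further lists was called for the KO effect in either sex.

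Other cell types did not all follow the same direction. Over all genes tested, 8.51% were called higher and 8.81% lower in males in WT mice, and 7.26% and 7.13% in KO mice. The tested genes of the erythroid list had higher levels in males. Alas2, the erythroid enzyme of heme synthesis, was 3.44 higher on the log2 scale in WT and 3.15 in KO males (adjusted p = 1.45e-13 and 8.31e-13). Its size of difference was not that of the globin genes, since its ratio of fWT to mWT means was 0.0919 and theirs were 0.706 to 0.806. Its mean of 70.8 CPM also lay above theirs, which were 5.34 to 34.6 CPM. Which cells its reads came from was not tested. The 4 globin genes tested were called higher in males in KO mice, with log2 fold changes from 0.91 to 1.15, and not in WT mice. The difference between the genotypes did not pass the threshold for any of them (adjusted p from 0.816 to 0.88). The T cell co-receptor gene Cd4 was 1.95 higher in WT and 1.75 higher in KO males (adjusted p = 0.000288 and 0.000636), and the lymphoid cytokine receptor gene Il2rb was lower in WT males (-1.33, SE 0.31, adjusted p = 0.00346). The direction of Cd4 was not that of the other T cell genes, which were too low to test, since the ratios of fWT to mWT means were 3.14 for Cd3d, 3.80 for Cd3g, 1.85 for Cd2 and 2.12 for Lck and that of Cd4 was 0.253. Neutrophil genes were near zero, with Ly6g listed at 0 in all libraries. Itgam of myeloid cells was the only monocyte or neutrophil gene called, lower in KO males (-1.68, SE 0.57, adjusted p = 0.048). This call rests on a low level, with a mean of 0.949 CPM and 12 of the 24 libraries at 0.66 CPM. Itgam was 0.265 to 0.707 CPM in mKO and 0.473 to 4.21 CPM in fKO mice, where mouse 6 was highest (next 1.72). Its ratio of fWT to mWT means was 0.977. Its exons overlap another gene on the same strand, and which gene its reads came from was not tested. Of the 8 hepatocyte genes, Asgr1 was called in WT mice (-0.22, adjusted p = 0.0244) and Ttr in KO mice (0.42, adjusted p = 0.00342). That is 1 of 8 in each genotype, beside 17.3% of all genes tested in WT and 14.4% in KO mice. The median over the 8 was 0.03 in WT and 0.02 in KO mice.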

How the data were processed

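Livers of 24 mice gave 1 RNAseq library each, with 6 mice in each of the 4 groups, and groups were taken from the sample labels. The authors sequenced 100 bp single-end reads, and the deposited values are unnormalized read counts for each Ensembl gene. The submitters' processing notes name bcl2fastq 2.19, fastp 0.20, STAR 2.7a, GRCm38.p6, featureCounts and edgeR 3.28.1. The annotation release, the strand setting and the treatment of reads mapping to several places are not given in the sources used here.

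Symbols, coordinates and exon lengths came from GENCODE M21 (GRCm38), which matched 25635 of the 25746 identifiers. Libraries were scaled with TMM factors between 0.9485 and 1.065. In edgeR 4.0.16 (R 4.3.3), 12330 genes that reached 0.66 CPM in 6 or more libraries were fitted by quasi-likelihood, with robust dispersions, over all 24 libraries with 1 mean per group. Contrasts were KO against WT in each sex, their difference and mean, and male against female in each genotype. A call is a Benjamini-Hochberg adjusted p-value under 0.05 over all genes tested, and the SE was derived from the F statistic. Likeness used log2 CPM with a pseudocount of 0.5. The procedure was tested on simulated data.

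The smallest detectable amount, 3 counts, was 0.199 CPM or less in each library, for counting error only. Replicates of a group differed by more than sampling noise (lowest chi-square per gene 7.67 over 60 pairs). The mouse numbers did not pair the samples. Values in all groups are given for members with an adjusted p-value under 0.05, an unadjusted p-value under 0.01 or no overlap in any comparison, and for the first listed and the most abundant member of each class, and other members are given by ranges or single values. The members and lists were chosen with earlier results of these data known. Alternatives were DESeq2 1.42.0, its size factors, 3 other filters, non-robust dispersions, the deviances of edgeR 4, Mup genes removed, each sex fitted on its own, Spearman correlation, sums without division by length, a replicate block and each mouse left out. A block across all groups was added after seeing the data. Promoter windows came from RefSeq and matched 27 of the 38 genes.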

Additional observations from a re-analysis of the deposited data

Results flagged for a closer look

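In groups of 6 mice, a single mouse stood apart from the other 5 in 16 of 152 combinations of a marker gene and a group, by Dixon's criterion for the gap between the outermost mouse and its neighbour, and in 3 of 20 combinations of a class sum and a group. Chance gives about 1 in 20, or 7.6 of 152, and genes of one class are not independent.

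In mKO mouse 1, the macrophage genes Clec4f (67.4 CPM, next mouse 36.5), Cd5l (64.9, next 34.2), Adgre1 (15.3, next 7.18) and Timd4 (6.32, next 2.52) were high, as were the summed macrophage markers (129 CPM per kb, next 70.4) and the summed endothelial markers (49.2 CPM per kb, next 42.7). Marco was high in fWT mouse 3 (9.97 CPM, next 5.15) and fKO mouse 3 (11.6 CPM, next 3.88) and low in mWT mouse 2 (0.872 CPM, next 2.67).

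In mWT mouse 1, the sinusoidal genes Stab2 (42.9 CPM, next 32.2) and Oit3 (18.9, next 13.9) and the growth factor gene Hgf (10.4, next 7.90) were high, and Stab2 was low in fWT mouse 2 (35.4 CPM, next 41.5). Stab2 was also the gene whose sex difference was called least steadily. Among stellate genes, fKO mouse 5 was high in Des (4.54 CPM, next 2.55) and Col1a2 (26 CPM, next 14.6), fKO mouse 4 was high in Dcn (199 CPM, next 158), and fKO mouse 6 was low in Reln (44.4 CPM, next 65.1). Sox9 was high in fWT mouse 4 (2.43 CPM, next 1.38), and the summed lymphoid and leukocyte markers were high in fKO mouse 3 (2.45 CPM per kb, next 1.38). No technical or biological origin of these values was tested.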

How the results depend on the processing

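The KO comparisons called 0 of the marker genes under every alternative run, in males, in females, for the difference and for the mean of the sexes. For male against female mice, the number of genes called in WT mice (15) was between 13 and 17 with another tool, scaling, filter or dispersion, and 9 to 16 with 1 mouse left out. In KO mice (4) it was 3 to 5, and 0 to 10 with 1 mouse left out, the highest without mKO mouse 1. The calls lost most often were those of Stab2 (22 of 34 alternatives in WT, 24 in KO mice) and, in WT mice, of Csf1r (11), C1qb (8) and Oit3 (8). No log2 fold change of a called gene reversed. Animals that share a mouse number are separate individuals, and their deviations did not go together (r from -0.335 to 0.169). With the mouse number as a replicate block within each sex the counts were 14 in WT and 4 in KO mice, and with a block across all groups, chosen after seeing the data, 15 and 3, with 0 in the KO comparisons. The members of these counts shifted: in KO mice the block within each sex lost Ecm1 and Stab2 and gained Hgf and Spp1, and that across groups lost Dcn and Stab2 and gained Spp1. In WT mice Stab2 was lost and Epcam gained with either block, and Csf1r was lost within sexes. The cause of these shifts was not tested. Depth limits the keratin, T cell and B cell genes.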
